A study of Mus musculus with 34 samples.

Results

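The genes of the cytosolic and the mitochondrial ribosomal proteins were followed through 30 peak lists of chromatin immunoprecipitation sequencing from mouse. Members were all gene symbols of the deposited tables that begin with Rpl or Rps and a digit or p (S6 kinases left out), or with Mrpl or Mrps and a digit. The tables held 128 such symbols among 18835. Of these, 69 were cytosolic and 59 mitochondrial. A start, the point from which the authors measured peak distances, could be worked out for 61 cytosolic and 48 mitochondrial members, against 16001 symbols in all. One of the 61, Rps19bp1, matches the name rule but is a ribosomal protein binding partner, not a subunit. The 19 members without a start (among them Rpl23, Rpl24, Rpl41, Rpl7, Rpl7a, Rps2, Rps9, Mrpl18, Mrpl2, Mrpl20, Mrpl32, Mrpl43, Mrpl47, Mrpl49, Mrpl52, Mrpl55, Mrps18b and Mrps26) were named in 1 or 2 table rows each and could not be scored. A start needs at least 2 agreeing peaks, so the shares below leave out members that had few peaks.

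Cytosolic ribosomes make nearly all proteins of a cell, and every growing cell transcribes their protein genes together and at high levels. Many of these genes begin transcription at a C within a run of pyrimidines, the 5′ terminal oligopyrimidine (TOP) tract, through which mTOR signalling controls translation of their mRNAs. The mitochondrial ribosome proteins are also nuclear-encoded. They are imported into mitochondria, where they translate a handful of mRNAs for respiratory chain subunits. Both sets are expressed in nearly every cell type, so the same starts can be followed through each tissue of the study.

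FLAG-tagged coactivators were immunoprecipitated with an anti-FLAG antibody from tissue of 129/C57BL/6 embryos of day 11.5, pooled from both sexes, and from embryonic stem cells (ESC) of the same line. SMARCA4, which powers the SWI/SNF chromatin remodeller as its ATPase, was mapped in ESC, heart, limb, face, neural tube and 3 brain regions (forebrain, midbrain and hindbrain). Its partner subunit SMARCC2 was mapped in face and hindbrain, the histone acetyltransferase EP300 in face and ESC, and NCOA1 and NCOA2, coactivators of nuclear receptors, in hindbrain. The labels give all FLAG samples and their controls the genotype SMARCA4/FLAG knock-in, also where another protein is named as tagged, and the tissue tag of the hindbrain SMARCA4 sample reads forebrain. Controls, called input controls, were analysed for EP300 and SMARCC2 in face, SMARCA4 in midbrain, and NCOA1, NCOA2 and SMARCC2 in hindbrain. Not analysed here were the SMARCA4 controls of neural tube, limb, heart and forebrain. CD1 embryos of the same day gave histone lists, of H3K4me1, H3K4me3 and H3K27me3 from both limb and forebrain and of H3K27ac from limb, with 3 inputs. Each list came from 1 library of tissue pooled from about 150 or 300 embryos. A replicate check was therefore not possible, p-values were not computed, and differences are between libraries. In tissue, fewer bound cells and less signal per cell cannot be told apart.

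Lists held from 495 rows (forebrain histone input) to 58181 rows (limb H3K4me1), and library depth is unknown. Of 5 to 7 marker genes of its tissue with a start, at least 4 had a row within 100 kb in 11 of the 14 FLAG lists. The exceptions were NCOA1, NCOA2 and SMARCC2 in hindbrain, with 1, 2 and 2 of 6 markers. These counts are not set against the same share of all genes, and they depend on list length, so they do not identify a tissue.

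Promoters of 8 members are shown first, 5 of members with many FLAG lists and 3 of members with none, because the text refers back to their letters. Each stretch runs from 80 bases before to 20 bases after the annotated start, from RefSeq on assembly GRCm38.p6. Capitals mark a TOP-like run (a C with at least 4 pyrimidines behind it, beginning within 5 bases of the start) and the motifs described next, and Rpl5 and Rps28 show neither in this window. Rpl19 has a second RefSeq promoter, not shown.
Rpl19, chr11:98026630-98026729, plus strand: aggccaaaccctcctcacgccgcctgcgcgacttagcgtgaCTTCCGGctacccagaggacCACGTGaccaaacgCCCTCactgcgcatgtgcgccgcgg
Rpl31, chr1:39367771-39367870, plus strand: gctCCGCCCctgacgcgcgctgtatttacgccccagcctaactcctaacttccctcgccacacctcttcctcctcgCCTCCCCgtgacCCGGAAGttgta
Rpl5, chr5:107900448-107900547, plus strand: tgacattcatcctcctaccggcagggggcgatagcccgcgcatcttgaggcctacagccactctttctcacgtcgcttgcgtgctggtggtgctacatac
Mrpl14, chr17:45686269-45686368, plus strand: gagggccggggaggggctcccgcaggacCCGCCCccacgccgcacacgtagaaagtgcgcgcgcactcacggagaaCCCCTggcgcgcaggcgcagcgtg
Mrpl17, chr7:105811068-105811167, minus strand: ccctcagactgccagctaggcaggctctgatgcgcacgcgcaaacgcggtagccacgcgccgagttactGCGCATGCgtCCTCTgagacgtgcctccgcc
Rps28, chr17:33824543-33824642, minus strand: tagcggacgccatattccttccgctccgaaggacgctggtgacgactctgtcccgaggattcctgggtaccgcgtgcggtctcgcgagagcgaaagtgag
Mrpl27, chr11:94653711-94653810, plus strand: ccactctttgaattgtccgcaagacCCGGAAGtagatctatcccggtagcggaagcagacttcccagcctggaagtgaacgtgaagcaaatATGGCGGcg
Mrps12, chr7:28741802-28741901, minus strand: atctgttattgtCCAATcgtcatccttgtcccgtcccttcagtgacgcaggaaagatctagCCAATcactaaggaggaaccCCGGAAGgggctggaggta

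The RefSeq table held 57 promoters of 46 cytosolic members, 46 promoters of 42 mitochondrial members, and 32851 promoters in all, each of 300 bases. Letters were searched on both strands. CCGGAAG, the core bound by ETS-family factors such as GABPA, was found in 36.8% of cytosolic and 32.6% of mitochondrial promoters, against 8.86% of all. ATGGCGG, the core of the YY1 site, was found in 22.8% and 21.7%, against 4.05% of all. The GC box GGGCGG, which can share bases with ATGGCGG, was found in 61.4% and 52.2%, against 35.7%. GCATGCGC, part of the NRF1 site, was in 5.26% and 10.9%, against 2.71%. TATAAA was in 5.26% of cytosolic promoters, 10.9% of mitochondrial and 13.6% of all. CCAAT was in 29.8%, 34.8% and 37.4%, and CACGTG in 12.3%, 4.35% and 7.15%. The TOP-like run, read on the sense strand alone, was at 45.6% of cytosolic starts, 30.4% of mitochondrial and 18.3% of all. Both classes thus carried the ETS and YY1 letters several times as often as all promoters of the table. Their median GC content was also higher, at 59.3% and 58.7%, against 52.7% of all. The promoters were not matched for base composition, and its part in these shares was not tested. The ETS and YY1 letters did not separate members with many FLAG lists from members with few. The median was 4 FLAG lists for cytosolic members with CCGGAAG (20 genes) and for those without it (26 genes). Among mitochondrial members it was 2 lists with CCGGAAG (15 genes) and 3 without (27 genes). With and without ATGGCGG the medians were equal, at 4 lists for cytosolic and 2 for mitochondrial members. The widest difference for any letters was that of GCATGCGC in cytosolic members, at 7 lists with it (3 genes) and 4 without (43 genes). Among mitochondrial members both medians for GCATGCGC were 2. In the stretches above, Mrpl27 and Mrps12 show CCGGAAG and were in 0 FLAG lists, whereas the stretch of Mrpl14 lacks it and the gene was in 9.

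Most starts carried histone marks of active genes, H3K4me3 in limb and forebrain and H3K27ac in limb, where alone it was mapped. Expression was not examined. H3K4me3, the mark of active starts, lay within 1 kb of 54 of 61 cytosolic starts in limb (88.5%, exact 95% binomial interval 77.8 to 95.3) and of 46 of 48 mitochondrial starts (95.8%, 85.7 to 99.5), against 74.7% of all genes. Forebrain gave 53 cytosolic and 46 mitochondrial starts (86.9% and 95.8%), against 73.4% of all genes. Limb H3K27ac, found at active promoters and enhancers, lay at 49 cytosolic starts (80.3%, 68.2 to 89.4) and 46 mitochondrial starts (95.8%), against 55.1% of all genes. All 46 mitochondrial starts with limb H3K4me3 also carried H3K27ac, as did 49 of the 54 cytosolic ones. Of all genes with limb H3K4me3, 72.2% carried H3K27ac. These intervals cover counting error alone, here and below.

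The H3K4me3 rows over cytosolic starts stood high in the authors' ranking. Their median place was 9.96% of the way down the limb list and 7.58% down the forebrain list, against 30.6% and 35.9% for rows at any gene start. Mitochondrial rows had medians of 14.1% and 11.7%. Cytosolic rows were also longer, with a median of 2811 bp in limb against 1868 bp at mitochondrial starts and 2163 bp at all starts. Limb H3K27ac separated the classes. Its cytosolic rows had a median place of 11% and a median length of 1695 bp, and its mitochondrial rows 32.6% and 1071 bp, against 27.9% and 1419 bp at all starts.

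H3K27me3, the Polycomb mark of silenced developmental genes, had a row at a single member. It lay within 1 kb of 1 of 61 cytosolic starts in limb and 0 in forebrain, and of 0 of 48 mitochondrial starts in both, against 29.1% and 18.9% of all genes. A count of 0 is taken to allow up to 3 genes, here and below, which is 4.92% of the cytosolic and 6.25% of the mitochondrial starts. The exact intervals reach slightly higher, to 5.87% and 7.40%. The single member was Rps4x, an X-linked small subunit gene whose start lies at position 99384662 of chromosome X (mm9). Its H3K27me3 row of 1914 bp covered the start, as did its limb H3K4me3 row of 2838 bp. The limb was pooled from both sexes, and whether the 2 marks lie on the same or on different X chromosomes was not tested.

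H3K4me1 often lay beside the cytosolic starts, with 34 beside and 12 over the start in forebrain and 25 and 20 in limb. Within 1 kb it was found at 45 cytosolic starts in limb (73.8%) and 46 in forebrain (75.4%), against 71.5% and 61.3% of all genes. Rows covered the start itself in 20 cases in limb (32.8%, 21.3 to 46.0) and 12 in forebrain (19.7%, 10.6 to 31.8), against 57.9% and 33.5% of all genes. Mitochondrial starts had H3K4me1 within 1 kb in 29 cases in limb (60.4%) and 24 in forebrain (50.0%), and on the start in 21 (43.8%) and 4 (8.33%). H3K4me3 and H3K27ac behaved otherwise, because each of their rows within 1 kb of a member covered the start.

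**Figure D1:**
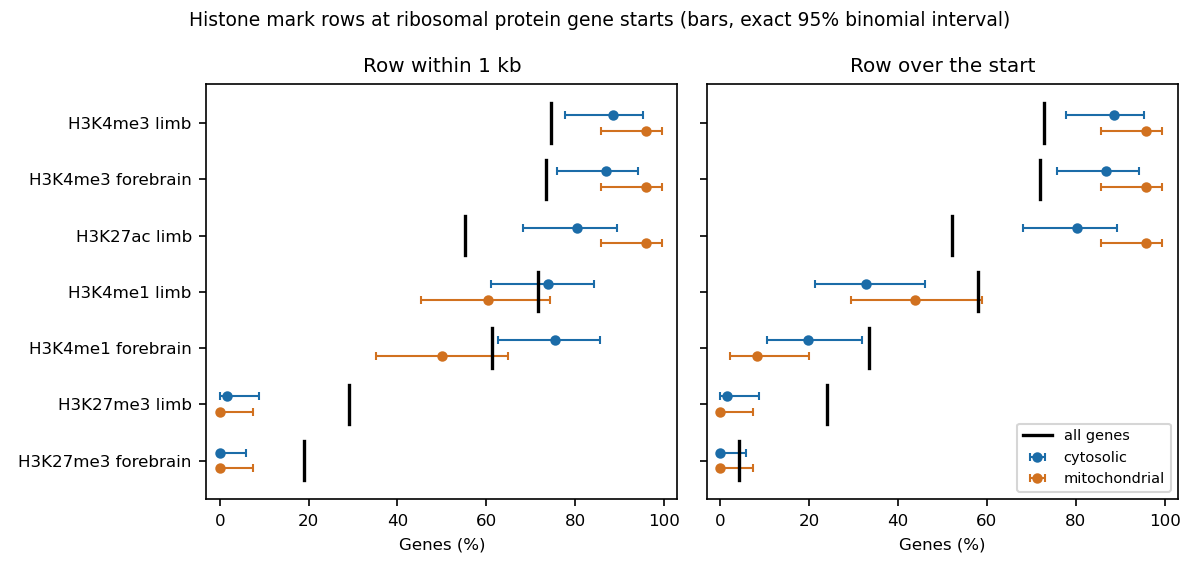
Share of cytosolic (blue) and mitochondrial (orange) ribosomal protein genes with a histone row within 1 kb of the start (left) or over it (right), in percent. Bars are exact 95% binomial intervals and black lines all 16001 genes with a start. H3K4me3 and H3K27ac keep their shares from left to right, whereas H3K4me1 at cytosolic starts falls from 75.4% to 19.7% in forebrain, and H3K27me3 stays near 0.

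In all, 9 members lacked an H3K4me3 row within 1 kb in both tissues. They were Rpl8, Rpl17, Rpl29, Rpl37a, Rpl38, Rplp1 and Rps28 among the cytosolic genes, and Mrpl33 and Mrps16 among the mitochondrial. All but Mrpl33 had an H3K4me1 row within 1 kb in both tissues, which among all genes held in at least 1 tissue for 1244 of 3827 starts without H3K4me3. The nearest forebrain H3K4me3 row was 1489 bp away from Rps28 and 111545 bp from Rpl37a. Rpl38, a large subunit protein known for its part in Hox mRNA translation, had its nearest limb H3K4me3 row 6668 bp from the start and its nearest H3K4me1 row 455 bp away. Mrpl33 had no row of any list within 1 kb, and its nearest limb H3K4me1 row was 12651 bp away. Whether these starts lack the mark or the lists have a gap there was not tested. Rpl29 had a second tabled start, on chromosome 5, whereas RefSeq places the gene on chromosome 9. All other starts were on the RefSeq chromosome.

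Of 14 FLAG lists, 10 had a higher share of cytosolic than of mitochondrial members, 3 a lower one and 1 (SMARCC2 in hindbrain) neither. The intervals of the classes overlap in all of them but SMARCA4 in heart and in neural tube, and in SMARCA4 limb the shares differ by less than 1 gene. The cytosolic share exceeded that of all genes in 9 lists, the mitochondrial share in 2. The lists differ in length, so each share is read against that of all genes in the same list. A comparison added after seeing the data took starts with limb H3K4me3 alone. There, the mitochondrial share was under that of all such genes in 13 of 14 lists. Its interval lay below in 5 (SMARCA4 face, forebrain, hindbrain and neural tube, and SMARCC2 face). The cytosolic share was under in 8, with its interval below in 2 (SMARCA4 hindbrain and SMARCC2 face), and over in 6, with its interval above in 1.

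The share of cytosolic starts with a SMARCA4 heart row nearby was well above that of all genes, and the mitochondrial share was close to it. Rows lay within 1 kb of 31 of 61 cytosolic starts (50.8%, 37.7 to 63.9) and 10 of 48 mitochondrial starts (20.8%, 10.5 to 35.0), against 21.4% of all genes. Both subunits took part, with 17 of 34 genes of the large subunit and 14 of 27 of the small. Among starts with limb H3K4me3 alone the cytosolic share was 29 of 54 (53.7%, 39.6 to 67.4) against 26.6% of all such genes, the only FLAG list whose cytosolic interval then lay above it. Rows over no row of any control or input list remained at 18 cytosolic starts (29.5%) and 2 mitochondrial starts (4.17%), against 9.51% of all genes. The heart sample's own control is not among the lists, so its part in these rows was not tested. The rows were of ordinary strength, with a median count of 39 tags at cytosolic starts against 42 at all starts and a median fold of 5.12 against 5.06. Rpl27a held the highest authors' score of the 31, at 248 with 135 tags and 7.20-fold enrichment. Rpl13a followed with a score of 214 and 106 tags. Of the 10 mitochondrial rows, that of Mrpl23 had the highest score, at 187 with 90 tags. The heart members included Rps19, Rps15, Rps14, Rpl5 and Rps3a. None of the 41 heart members was in SMARCA4 heart alone among the 8 SMARCA4 lists. Over all genes this held for 128 of 3425 heart genes, so few genes of any kind were in that list alone.

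In the other tissues, SMARCA4 rows lay within 1 kb of anything from nearly none to most of the members. In face, the longest FLAG list (35099 rows), rows lay at 52 cytosolic starts (85.2%, 73.8 to 93.0) and 35 mitochondrial starts (72.9%, 58.2 to 84.7), against 74.1% of all genes. Among starts with limb H3K4me3 these shares were 92.6% (82.1 to 97.9) and 73.9% (58.9 to 85.7), against 93.6% of all such genes. In neural tube, rows lay at 38 cytosolic starts (62.3%, 49.0 to 74.4) and 16 mitochondrial starts (33.3%, 20.4 to 48.4), against 54.8%. The mitochondrial interval thus lay below the share of all genes. Forebrain had 22 and 11 members (36.1% and 22.9%), against 30.8%. Limb had 14 and 11 (23.0% and 22.9%), against 26.8%. Hindbrain had 6 and 5 (9.84% and 10.4%), against 18.3%. In ESC it was 5 and 3 (8.20% and 6.25%), against 6.77%. Midbrain held 1 and 0 members (1.64% and 0%), against 2.18%, where 0 allows up to 6.25%. The 1 midbrain gene was Rpl8, with 38 tags, an authors' score of 69.7 and 11-fold enrichment. Rows were at 25 of 34 large subunit genes (73.5%, 55.6 to 87.1) and 13 of 27 small subunit genes (48.1%, 28.7 to 68.1) in neural tube. In forebrain they were at 16 (47.1%, 29.8 to 64.9) and 6 (22.2%, 8.62 to 42.3). The intervals of the subunits overlap in both tissues. The 3 lists of neural tube, forebrain and limb have long rows, with medians from 2250 to 3100 bp, and the part of row length in their shares was not tested.

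EP300 was found at ribosomal protein genes in ESC and in face. In ESC, 30 cytosolic starts (49.2%, 36.1 to 62.3) and 26 mitochondrial starts (54.2%, 39.2 to 68.6) had a row, against 34.9% of all genes. ESC was the only FLAG list whose mitochondrial interval lay above all genes. In face, 20 cytosolic (32.8%, 21.3 to 46.0) and 11 mitochondrial starts (22.9%, 12 to 37.3) had one, against 19.3%. Of the face members, 11 of 20 cytosolic and 9 of 11 mitochondrial were also in the ESC list (55% and 81.8%), against 58.1% of all genes in the face list. Among starts with limb H3K4me3, the cytosolic shares were 51.9% in ESC and 37.0% in face, against 44.4% and 25.3%, and the mitochondrial share in ESC was 56.5% (41.1 to 71.1). All 3 intervals include the share of all such genes. Rpl22l1 had the highest cytosolic score in ESC (171, with 17 tags) and Mrpl12, of the mitochondrial stalk, the highest mitochondrial one (169, with 30 tags). In face these were Rpl19 (301, with 167 tags) and Mrps35 (188, with 70 tags).

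SMARCC2 in face was low at the cytosolic class. Rows lay at 6 cytosolic starts (9.84%, 3.70 to 20.2) and 8 mitochondrial starts (16.7%, 7.48 to 30.2), against 26.9% of all genes, which the mitochondrial interval includes. Among starts with limb H3K4me3 the cytosolic interval (3.08 to 20.3) and the mitochondrial interval (7.82 to 31.4) both lay below the 34.3% of all such genes. The 6 cytosolic genes were Rpl8, Rpl10a, Rpl31, Rpl37, Rps3a and Rps12. Their rows were weak within the list, with a median authors' score of 58.9 against 92.1 at all starts. The 8 mitochondrial rows were nearly as weak, with a median of 61.7. SMARCC2 in hindbrain had 0 members in either class, against 0.556% of all genes. The face list thus held fewer of the cytosolic genes than the SMARCA4 list of the same tissue, of whose 52 members it shared 5 (9.62% of that list's and 83.3% of its own, against 34.8% and 95.8% over all genes).

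NCOA2 in hindbrain lay at 21 cytosolic starts (34.4%, 22.7 to 47.7) and 9 mitochondrial starts (18.8%, 8.95 to 32.6), against 21.2% of all genes. The large subunit had 15 of 34 and the small 6 of 27, with overlapping intervals (27.2 to 62.1 and 8.62 to 42.3). NCOA1 in hindbrain lay at 5 cytosolic starts (8.20%, 2.72 to 18.1) and 0 mitochondrial starts, against 5.10%. The 5 were Rpl9, Rpl13, Rpl19, Rplp2 and Rps6, the last a substrate of S6 kinases. All but Rpl13 lay within 250 bp of the start by their summits. Rpl19 had the highest authors' score of the cytosolic genes in both lists, 142 with 55 tags for NCOA1 and 214 with 42 tags for NCOA2.

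The controls called many of the same starts. Rows lay at 43 cytosolic starts (70.5%) in both the EP300 face control and the SMARCA4 midbrain control, against 65.3% and 66.5% of all genes, and at 34 and 37 mitochondrial starts (70.8% and 77.1%). The NCOA2 control had 15 and 12 members (24.6% and 25%), against 25.9%. The NCOA1 control had 1 and 3, against 2.66%. The SMARCC2 hindbrain control had 2 and 1, against 2.69%, and the SMARCC2 face control 0 and 0, against 0.294%. The 3 histone inputs had 0 members, against 0.606% of all genes for the limb input of H3K27ac, 0.519% for the other limb input and 0.0375% for forebrain. In all, 53 of 61 cytosolic and 41 of 48 mitochondrial starts (86.9% and 85.4%) were in at least 1 control, against 75.6% of all genes.

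Set against its own control, EP300 in face had 15 cytosolic members in both lists, 5 in the FLAG list alone and 28 in the control alone. Over all genes the counts were 2577, 508 and 7870. For NCOA2 the cytosolic counts were 3, 18 and 12 and the mitochondrial 1, 8 and 11. Over all genes they were 1029, 2362 and 3112, so that most NCOA2 genes of the whole list were also outside its control. NCOA1 had 0, 5 and 1 cytosolic members, against 20, 796 and 405 of all genes. SMARCA4 in midbrain had 0, 1 and 43, against 200, 149 and 10441, and SMARCC2 in face 0, 6 and 0, against 11, 4289 and 36. The control lists of EP300 in face (28895 rows) and SMARCA4 in midbrain (19772 rows) are longer than their FLAG lists (3589 and 1513 rows), and rows called in lists of such different length do not show how much signal each library had. After removal of rows over any control or input row, 0 NCOA2 members remained in both classes. This count is not set against all genes here, so it is not read as a trait of the members. For EP300 in face and in ESC, 2 cytosolic members each remained (3.28%), against 1.34% and 2.96% of all genes. SMARCA4 in heart was the one list with more than 7 cytosolic members left.

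**Figure D2:**
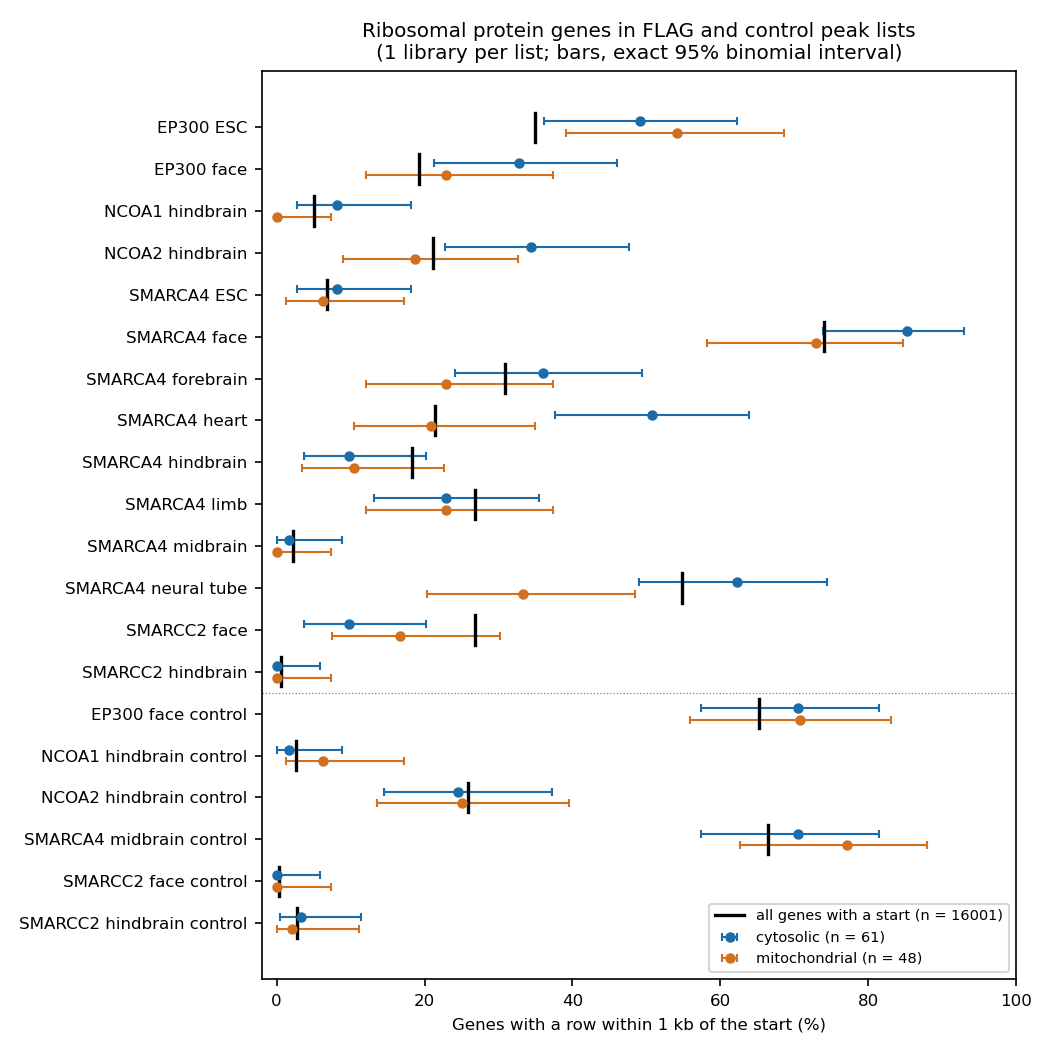
Share of genes with a row within 1 kb of the start, in percent, for 14 FLAG lists (above the dotted line) and 6 control lists. Points are cytosolic (blue, n = 61) and mitochondrial (orange, n = 48) ribosomal protein genes with exact 95% binomial intervals, and black lines all 16001 genes. The cytosolic interval in SMARCA4 heart (37.7 to 63.9) clears the line at 21.4%, and the EP300 face and SMARCA4 midbrain controls reach 70.5%.

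Counted over the 14 FLAG lists, a cytosolic gene was in a mean of 4.11 lists (median 4, quartiles 3 and 5), a mitochondrial gene in 3.02 (median 2, quartiles 1 and 4.25), and any gene with a start in 3.43 (median 3). Among genes with limb H3K4me3 the mean was 4.33 for cytosolic, 3.11 for mitochondrial and 4.38 for all genes. At most 10 lists held 1 member. Genes in at least 5 of the 8 SMARCA4 lists numbered 9 cytosolic (14.8%) and 3 mitochondrial (6.25%), against 13% of all genes. No FLAG list held Rps28, Mrpl19, Mrpl27, Mrpl33, Mrpl45 or Mrps12. Genes in 0 FLAG lists made up 1.64% of cytosolic and 10.4% of mitochondrial members, against 18.4% of all genes. Among genes with limb H3K4me3 these shares were 0% and 8.70%, against 1.77%.

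Mrps35, a small subunit protein of the mitochondrial ribosome, was in 10 FLAG lists and 1 control, the most of any member. Its start lies at position 146991291 of chromosome 6. Its tags were 15 in EP300 ESC, 70 in EP300 face, 29 in NCOA2, 27 in SMARCA4 heart, 9 in SMARCA4 hindbrain and 62 in SMARCC2 face. The midbrain control gave 36 tags there, with an authors' score of 265. The highest FLAG score was 188, in EP300 face. Scores of different lists are not on 1 scale. Mrpl14, of the mitochondrial large subunit, was in 9 FLAG lists and 2 controls. The start of Tmem63b lies within 1 kb of it, so its rows cannot be given to 1 of the 2 genes. Mrpl17, Mrpl23 and Mrpl48 were in 7 FLAG lists each and in 3, 2 and 3 controls. A second start within 1 kb was found for 5 cytosolic and 6 mitochondrial members in all (8.20% and 12.5%, against 8.98% of all genes).

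Rpl19, a large subunit gene with 2 tabled starts at positions 97888270 and 97889136 of chromosome 11, was in 9 FLAG lists. It was absent from the SMARCA4 lists of ESC, hindbrain and midbrain and from both SMARCC2 lists. Its EP300 face row spans 97887708 to 97889015, with 11.5-fold enrichment. Rpl31, at position 39424763 of chromosome 1, was in 8 FLAG lists and in 0 of the 6 controls. It was in 6 SMARCA4 lists, in EP300 face (55 tags) and in SMARCC2 face (49 tags). Its promoter, shown above, joins a TOP-like run with CCGGAAG just behind the start. Rpl5, which with Rpl11 carries the 5S ribosomal RNA into the large subunit, was in 8 FLAG lists and 3 controls. Rps14 and Rps3a were in 8 FLAG lists and 2 controls each, and another tabled start lies within 1 kb of Rps3a.

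At the other end, Rps4x was in 1 FLAG list (EP300 ESC), and Rpl3, Rpl35, Rpl36 and Rps10 were in 2 each, although all 5 had limb H3K4me3. Mrpl27 and Mrpl45 were in 0 FLAG lists but in 3 and 2 controls. Mrpl19 and Mrps12, the latter a protein of the decoding site, were in 0 FLAG lists and 0 controls with both limb H3K4me3 and H3K27ac. Mrpl16 was in 1.

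Paralogue pairs differed by few lists. Rpl22 was in 4 FLAG lists and its paralogue Rpl22l1 in 6, with NCOA2 hindbrain, SMARCA4 face and SMARCA4 neural tube in common. Rpl22l1 also had EP300 in ESC and face and SMARCA4 in hindbrain, and Rpl22 alone had SMARCA4 in heart. Rps27 was in 2 lists and Rps27l in 3, both with EP300 ESC and SMARCA4 face. Rpl36al was in 5 FLAG lists and 4 controls. Of the stalk proteins, which recruit the translation factors, Rplp2 was in 4 FLAG lists, among them both NCOA lists, and Rplp1 in 1.

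**Figure D3:**
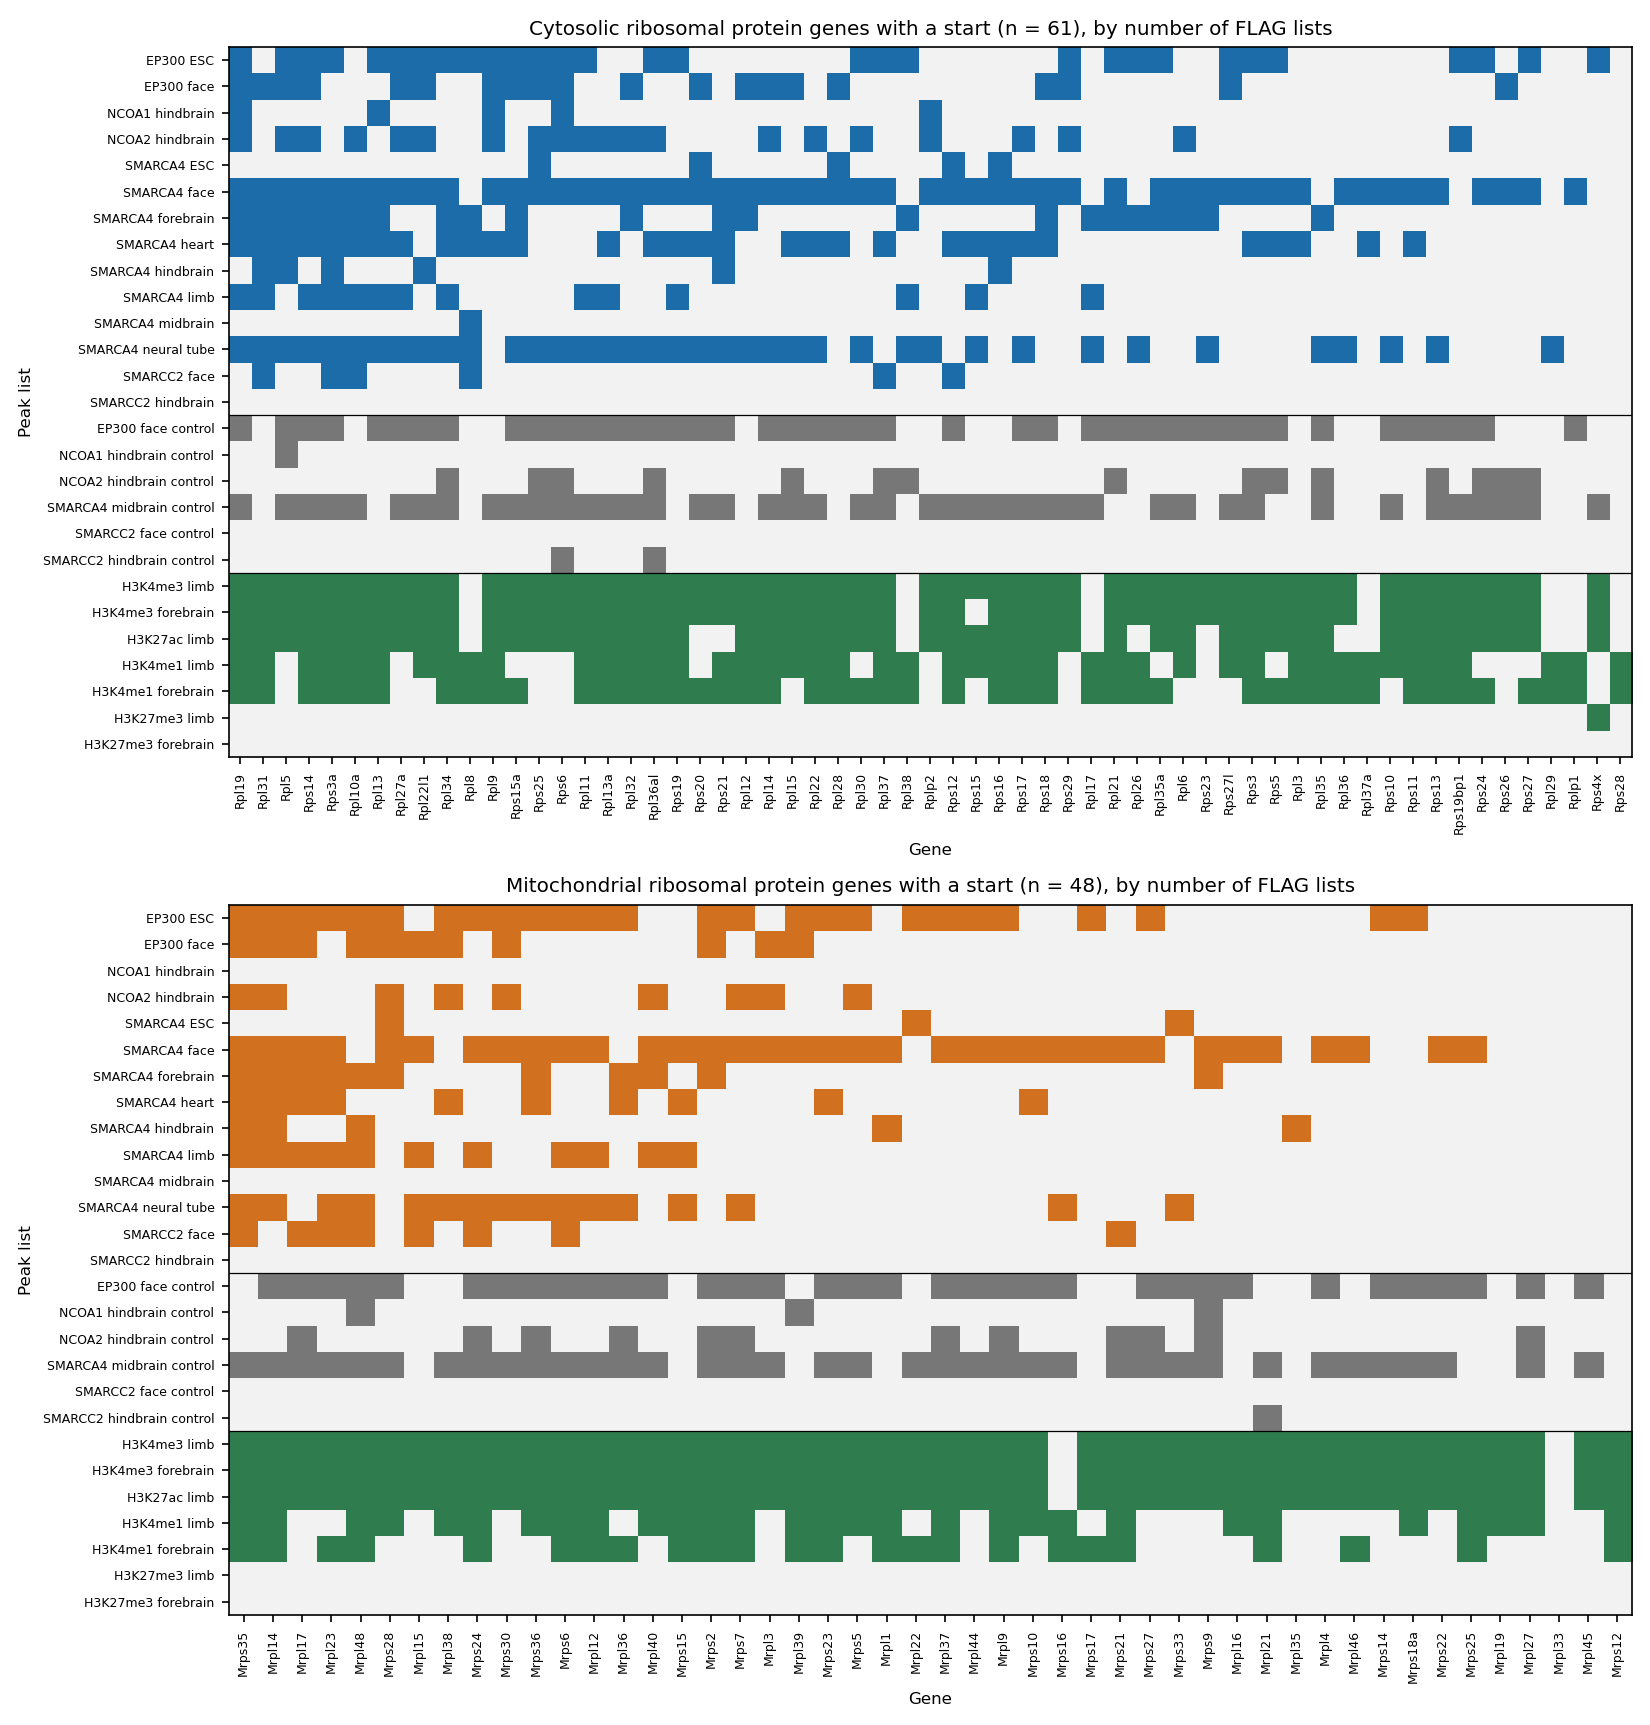
Presence of a row within 1 kb of the start (filled cells) for each cytosolic (top) and mitochondrial (bottom) ribosomal protein gene, along the horizontal axis, in 14 FLAG lists (blue or orange), 6 controls (grey) and 7 histone lists (green). Genes are ordered by number of FLAG lists, from Rpl19 (9) to Rps28 (0) and from Mrps35 (10) to Mrps12 (0). The H3K27me3 lines are empty but for Rps4x.

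**Figure D4:**
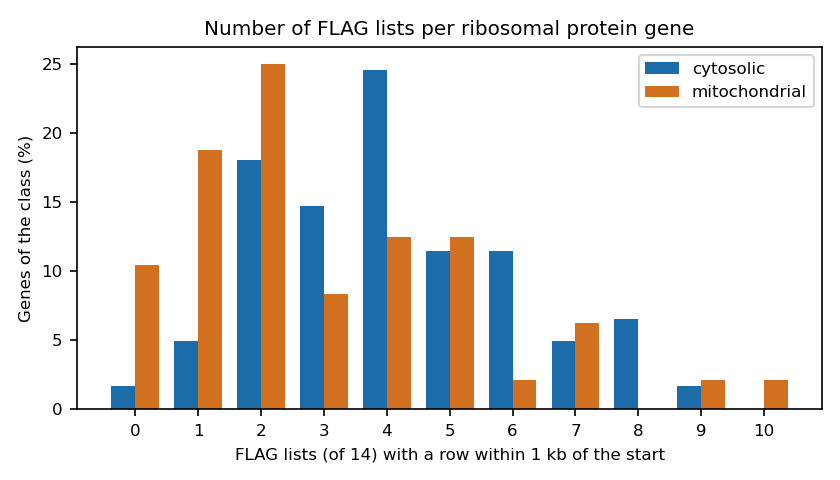
Percent of cytosolic (blue, n = 61) and mitochondrial (orange, n = 48) ribosomal protein genes in each number of FLAG lists, out of 14. The cytosolic genes peak at 4 lists and the mitochondrial at 2.

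Summits took different places in different lists. Distances were signed in the direction of transcription for members whose strand was known. EP300 rows in ESC had their summits a median of 154 bp downstream of cytosolic starts (n = 29) and 79.0 bp downstream of mitochondrial starts (n = 26), and 24 and 22 of them lay within 250 bp. NCOA2 summits were at 151 bp (n = 21) and 77.0 bp (n = 9), and EP300 face summits at 156 bp (n = 20) and 128 bp (n = 10). The controls were much the same, with 137 bp for cytosolic starts in the midbrain control (n = 43) and 96.0 bp in the EP300 face control (n = 43).

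SMARCA4 in heart had its summits to the sides of the start. Its rows lay beside 26 cytosolic starts and covered 5 (8.20%, 2.72 to 18.1). Over all genes 3.91% of starts were covered, which the interval includes. EP300 ESC rows also covered 5 cytosolic starts and lay beside 25, so coverage does not separate these lists at cytosolic starts. Summit distances do differ. Of 30 cytosolic summits in SMARCA4 heart, 2 lay within 250 bp (Rps14 at 66 bp and Rps18 at 78 bp). Another 19 lay more than 250 bp downstream and the other 9 more than 250 bp upstream. Among all genes, 15.7% of SMARCA4 heart summits lay within 250 bp, against 58.5% in EP300 ESC, so the flanking position belongs to the list as a whole. Rpl5 shows both summit positions, with its summit 163 bp downstream in EP300 ESC and 507 bp downstream in SMARCA4 heart. In SMARCC2 face all 5 cytosolic summits with a known strand were more than 250 bp downstream, from 469 bp (Rpl31) to 1223 bp (Rpl10a). Among all genes that share was 55.5%.

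**Figure D5:**
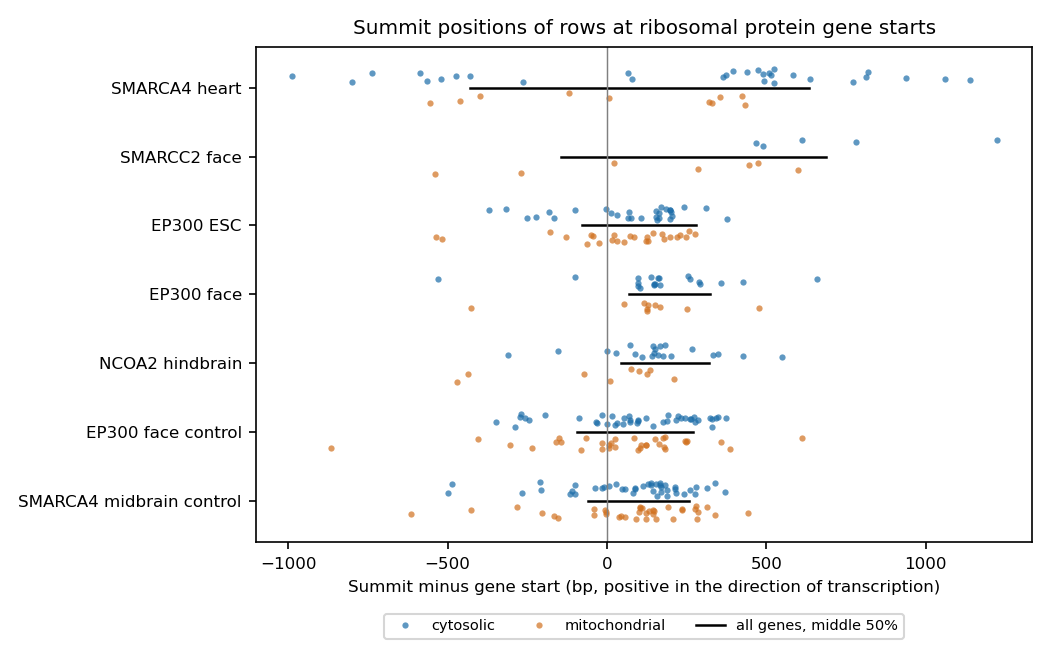
Summit position relative to the gene start, in bp, with positive values in the direction of transcription, for cytosolic (blue) and mitochondrial (orange) members in 5 FLAG and 2 control lists. Black lines run from the lower to the upper quartile of all genes. SMARCA4 heart leaves the start nearly empty, with 2 of 30 cytosolic summits within 250 bp, whereas EP300 ESC has 24 of 29 there.

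Other genes of protein synthesis and respiration had lower shares in the heart list than the 50.8% of cytosolic ribosomal protein genes. No test compares these lists of genes. SMARCA4 in heart lay at 13 of 39 cytosolic translation factor genes (33.3%), 4 of 16 cytosolic aminoacyl-tRNA synthetase genes (25%), 3 of 13 mitochondrial ones (23.1%), 3 of 19 ribosome biogenesis genes (15.8%) and 11 of 46 oxidative phosphorylation genes (23.9%). It lay at 1 of 26 proteasome genes (3.85%) and 0 of 13 mitochondrial translation and transcription factor genes, where 0 allows up to 23.1%. EP300 in face was at 18 of 26 proteasome genes (69.2%) and 19 of 39 translation factor genes (48.7%), above the 32.8% of cytosolic ribosomal protein genes. The 6 ribosomal protein genes whose names fall outside the rule had SMARCA4 heart at 1 (16.7%) and EP300 face at 5 (83.3%). H3K4me3 was at 39 of 39 translation factor genes, 46 of 46 oxidative phosphorylation genes and 25 of 26 proteasome genes in limb. Against all genes in the same list (21.4%), the heart share of the cytosolic ribosomal protein genes was 2.37 times as large.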

How the data were processed

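Peak lists of 30 of 34 samples were used. The submitters' processing notes name BWA and mm9, and the peak caller is not given in the sources used here. Per the file headers, 16 deposited tables give each peak's position, summit, tag count, a score (minus 10 times the log10 of p, at least 50 in each row), a fold ratio over background, a peak height in read coverage (signal), a false discovery rate in percent, and the nearest gene with its distance. The false discovery rates were not used. The other 14 deposited lists give positions and a rank.

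A gene start was the point, summit plus or minus distance, on which at least 2 peaks agreed (18934 of 23432 gene names, 0 conflicts). A gene counted in a list when a row came within 1 kb of a start of its symbol. All 109 members matched RefSeq (GRCm38.p6) by symbol or synonym. Strand came from RefSeq or else from the tables' base counts per feature, which gave the same strand in 99.6% of 8736 names. Shares carry exact 95% Clopper-Pearson intervals (scipy 1.17.1, numpy 2.4.6, pandas 2.3.3). With 1 library per group there was no test. Placement and counting were tested on simulated data. Named genes were, per class, the 5 with the most FLAG lists, the 5 with limb H3K4me3 and the fewest, those with H3K27me3 or without H3K4me3, the highest authors' score per table, paralogue pairs and stalk proteins. Other names, such as further genes at SMARCA4 heart rows, were chosen after their values were seen. One member is not reported here by name. The members and lists were chosen with earlier results of these data known.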

Additional observations from a re-analysis of the deposited data

Results flagged for a closer look

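SMARCC2 differed from its controls in opposite directions in the 2 tissues. In face, the share of cytosolic ribosomal protein genes with a row was 9.84 percentage points higher in the FLAG list than in its control, and that of mitochondrial ones 16.7 points higher. In hindbrain the differences were -3.28 and -2.08 points. Over all genes the differences were 26.6 points in face and -2.14 points in hindbrain, so the opposite signs are those of the lists as a whole. The hindbrain values rest on 0 FLAG genes against 2 cytosolic and 1 mitochondrial control genes. The difference between tissues was not tested, since each list is 1 library. The face FLAG list has 11321 rows against 1078 in its control, and the hindbrain list 2272 against 921, and the part of list length in these differences was not tested.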

How the results depend on the processing

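Of 426 values recomputed under an alternative, 365 stayed within the main value's interval (for lists per gene, within 1 SD) and 61 did not. Most are given without the share of all genes under the same alternative. A change in them is therefore not read as a trait of the members. All 60 shares stayed within the main value's interval with a 2 kb window or with subunit genes alone. So did all 32 with starts placed without the list scored. The choice of subunit genes alone left out 4 cytosolic members (Rpl22l1, Rpl36al, Rps19bp1 and Rps27l) and 0 mitochondrial ones. The mitochondrial shares could therefore not change under it, and they are counted among the 365. Without FLAG rows over a control or input row, which can only lower a share, also that of all genes, 21 of 28 shares left the interval. The cytosolic shares were 3.28% (EP300 ESC), 3.28% (EP300 face), 1.64% (NCOA1 hindbrain), 0% (NCOA2 hindbrain), 11.5% (SMARCA4 face), 4.92% (SMARCA4 forebrain), 29.5% (SMARCA4 heart), 3.28% (SMARCA4 hindbrain), 1.64% (SMARCA4 limb), 8.2% (SMARCA4 neural tube), 3.28% (SMARCC2 face). The mitochondrial shares were 4.17% (EP300 ESC), 2.08% (EP300 face), 0% (NCOA2 hindbrain), 8.33% (SMARCA4 face), 0% (SMARCA4 forebrain), 4.17% (SMARCA4 heart), 2.08% (SMARCA4 hindbrain), 4.17% (SMARCA4 limb), 4.17% (SMARCA4 neural tube), 2.08% (SMARCC2 face). In the upper 50% of each list, which holds fewer rows, 30 of 60 did. The cytosolic shares were 36.1% (EP300 ESC), 18% (EP300 face), 9.84% (NCOA2 hindbrain), 1.64% (SMARCA4 ESC), 65.6% (SMARCA4 face), 21.3% (SMARCA4 forebrain), 29.5% (SMARCA4 heart), 1.64% (SMARCA4 hindbrain), 9.84% (SMARCA4 limb), 41% (SMARCA4 neural tube), 1.64% (SMARCC2 face), 0% (NCOA1 hindbrain control), 9.84% (NCOA2 hindbrain control), 50.8% (SMARCA4 midbrain control), 50.8% (H3K4me1 forebrain), 50.8% (H3K4me1 limb). The mitochondrial shares were 35.4% (EP300 ESC), 6.25% (EP300 face), 39.6% (SMARCA4 face), 10.4% (SMARCA4 heart), 10.4% (SMARCA4 limb), 18.8% (SMARCA4 neural tube), 4.17% (SMARCC2 face), 0% (NCOA1 hindbrain control), 8.33% (NCOA2 hindbrain control), 52.1% (SMARCA4 midbrain control), 0% (SMARCC2 hindbrain control), 70.8% (H3K27ac limb), 29.2% (H3K4me1 forebrain), 25% (H3K4me1 limb). With a 500 bp window, 2 did. The cytosolic shares were 52.5% (H3K4me1 forebrain), 54.1% (H3K4me1 limb). With the middle of the row within 1 kb, 3 did. The cytosolic shares were 24.6% (H3K4me1 forebrain), 26.2% (H3K4me1 limb), 77% (H3K4me3 limb). Among starts with limb H3K4me3, an alternative chosen after seeing the data, 5 did. The cytosolic shares were 0% (SMARCA4 midbrain), 90.7% (H3K27ac limb), 98.1% (H3K4me3 forebrain). The mitochondrial shares were 100% (H3K27ac limb), 100% (H3K4me3 forebrain). Mean lists per gene without SMARCA4 face, hindbrain, midbrain or EP300 face, also chosen after seeing the data, ranged from 3.26 to 4.10 for cytosolic and 2.29 to 3.02 for mitochondrial genes. No paired analysis was possible because each group holds 1 library, which also leaves no replicate to leave out. Only peaks in the lists were seen, library depth is unknown, and a gene without a row may still be bound.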

Other observations

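The FLAG lists of 1 tissue or cell type shared members to differing degrees. In face, each of the 20 cytosolic EP300 genes was also in the SMARCA4 list (38.5% of its 52), whereas in ESC 1 of 30 EP300 genes was in the SMARCA4 list (20% of its 5). Of all genes, 96.0% of EP300 face genes were in SMARCA4 face, and 9.08% of EP300 ESC genes were in SMARCA4 ESC. In hindbrain, 4 of the 5 cytosolic NCOA1 genes were also NCOA2 genes, and 2 of the 21 NCOA2 genes were SMARCA4 genes (80% and 9.52%). Over all genes these shares were 77.3% and 35.6%. Across tissues, the 14 cytosolic genes of SMARCA4 limb were all in SMARCA4 neural tube (36.8% of its 38), and the 6 of SMARCC2 face were all in SMARCA4 heart (19.4% of its 31). The shares of all genes were 94.9% and 34.8%.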
